A study of Mus musculus with 4 samples.

Results

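The granule cell transcription factors examined here were *Neurod1*, *Neurod2*, *Zic1*, *Zic2*, *Zic4*, *Zic5*, *Pax6*, *Etv1* and *Nfix*, 9 of the 24532 genes in the deposited tables. They were taken by gene name and matched by NCBI gene number, and all 9 were found. The labels name the tissue as cerebellum, and by the study's methods bulk RNA was collected from the granule-cell-enriched (GCE) layer, dissected by hand from slices of the vermis. There were 2 wild-type (WT) mice and 2 heterozygous *Kdm3b* mice (Kdm3b+/-), with 1 library for each mouse. The mice were adult males. The Kdm3b+/- mice descended from 1 gene-trap embryonic stem cell line, carried the trapped allele in every tissue, and had been bred to C57Bl/6N and then to C57Bl/6J. The WT mice of the study were their littermates, and no group received a treatment according to the labels.

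Granule cells are the most numerous neurons of the brain and send the parallel fibres that excite Purkinje cells. Their precursors leave the rhombic lip, divide in the outer layer of the young cerebellum and migrate inward, while transcription factors turn on and keep up the granule cell programme. *Neurod1* and *Neurod2* encode basic helix-loop-helix proteins that pair with E proteins on E-box sequences, the *Zic* genes encode zinc finger proteins, *Pax6* a paired-homeodomain protein, *Etv1* an ETS protein and *Nfix* a nuclear factor I protein. *Kdm3b* encodes a demethylase of histone H3 lysine 9, and the comparison of the genotypes asks which transcripts differ when 1 of its alleles is trapped.

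The upstream sequences of these genes are shown first, since some of the factors bind E-boxes or nuclear factor I motifs and the *Zic* genes sit in head-to-head pairs. In the deposited tables *Zic1* lay on the reverse strand of chromosome 9 (91360345 to 91365799) and *Zic4* on the forward strand (91368972 to 91389348), with 3172 bases between them. *Zic5* lay on the reverse strand of chromosome 14 (122459160 to 122465658) and *Zic2* on the forward strand (122475384 to 122480328), 9725 bases apart. The sequences below are RefSeq promoter windows of GRCm38.p6, given 5′ to 3′ on the strand of the gene and limited to bases that lie upstream of the start and in no GENCODE exon. Capitals mark E-boxes of any form (CANNTG) and short nuclear factor I motifs (TTGGC, or GCCAA on the other strand). The E-box is CACGTG in the *Zic1* sequence, CAAGTG in that of *Zic5* and CATATG in that of *Neurod1*. CAGATG, the form that NeuroD proteins prefer, is marked in the *Neurod2* sequence only. Whether NeuroD proteins or NFIX bind the marked letters was not tested.
Zic1, chr9:91365811-91366018: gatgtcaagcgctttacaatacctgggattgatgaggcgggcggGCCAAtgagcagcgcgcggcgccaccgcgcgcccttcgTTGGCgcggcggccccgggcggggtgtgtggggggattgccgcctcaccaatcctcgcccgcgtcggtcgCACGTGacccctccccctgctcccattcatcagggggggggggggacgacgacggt
Zic5, chr14:122465678-122465908: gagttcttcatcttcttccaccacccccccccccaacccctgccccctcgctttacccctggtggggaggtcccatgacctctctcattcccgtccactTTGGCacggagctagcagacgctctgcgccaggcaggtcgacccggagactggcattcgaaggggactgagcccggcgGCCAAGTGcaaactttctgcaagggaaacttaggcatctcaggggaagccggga
Neurod1, chr2:79456786-79456886: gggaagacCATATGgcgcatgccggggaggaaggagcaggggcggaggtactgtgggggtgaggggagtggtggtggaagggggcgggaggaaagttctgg
Neurod2, chr11:98329649-98329895: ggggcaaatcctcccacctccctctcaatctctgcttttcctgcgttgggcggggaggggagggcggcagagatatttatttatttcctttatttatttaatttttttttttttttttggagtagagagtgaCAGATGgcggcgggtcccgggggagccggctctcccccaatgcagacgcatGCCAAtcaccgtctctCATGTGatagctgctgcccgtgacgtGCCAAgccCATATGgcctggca

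In the *Zic5* sequence the second nuclear factor I motif and the E-box share letters. Over the whole windows, from 250 bases before the start to 50 after it, *Zic1* held 2 nuclear factor I motifs and 1 E-box, *Zic5* the same, and *Zic4* none and 2. A nuclear factor I motif was found in 46.7% and an E-box in 72.3% of all 32851 RefSeq windows, so neither is rare. The ETS motif CCGGAA and the Zic motif CCTGCTG, present in 14.9% and 10.5% of all windows, were found on either strand in none of the windows of these factors. The E-box CAGATG, the form that NeuroD proteins prefer, was found in 17.2% of all windows, in that of *Neurod2* and in 1 window each of *Nfix* and *Etv1*, but not in those of *Neurod1*, *Zic1*, *Zic4* or *Zic5*. The *Zic1* window held 31 CpG dinucleotides and that of *Zic4* 8, against a median of 7 over all windows. The table held 13 windows for 8 of the 9 genes and no entry for *Zic2*. Upstream sequences were taken out and printed for *Zic1*, *Zic5*, *Neurod1* and *Neurod2* only.

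TPM, a level per transcript length scaled to a sum of 1000000 in each library, was compared as log2(TPM + 1) with limma. The test covered the 13652 genes whose mean TPM reached 1, and p-values were adjusted over all of them by the Benjamini-Hochberg method. A gene was called differentially expressed (DEX) where its fold change exceeded 1.2 and its adjusted p was below 0.05. The added 1 shrinks fold changes at low levels. All 9 factors passed the minimum. The depth was between 4.92 and 6.69 aligned gigabases per library. Over all genes 63 were DEX, 16 higher (0.117%) and 47 lower (0.344%) in Kdm3b+/- mice, or 23 higher and 38 lower with median-ratio scaling. *Kdm3b* itself measured 9.10 and 11.0 TPM in WT animals against 8.30 and 7.90 in Kdm3b+/- animals, so the groups did not overlap, but it was not DEX (log2 fold change −0.27, standard error 0.17, limma adjusted p = 0.424). Exons upstream of the gene trap enter this value, so it is a weak check of the genotype.

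The levels of the 9 factors spanned from *Neurod1*, rank 176 of the tested genes with a mean TPM of 696.5, to *Zic2*, rank 8452 with a mean of 11.1. *Etv1* followed *Neurod1* with a mean TPM of 420.9, then *Nfix* with 222.0, *Neurod2* with 95.1, *Pax6* with 67.9, *Zic5* with 35.6, *Zic4* with 26.8 and *Zic1* with 17.6. The ranges over the 4 mice overlapped for 2 neighbouring pairs in this order. *Zic5* ran from 29.2 to 45.1 and *Zic4* from 24.1 to 29.9, although *Zic5* was the higher in each mouse. *Zic1* was above *Zic2* in 3 of 4 mice, the exception being WT mouse 2. The ranges of all other neighbours were separate. *Neurod1* made up between 40.8% and 44.9% of the summed TPM of the 9 genes. The rank of *Zic1* depends on its gene model, since RefSeq extends the gene by 2287 bases beyond the 3′ end used in the deposited tables.

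**Figure D1:**
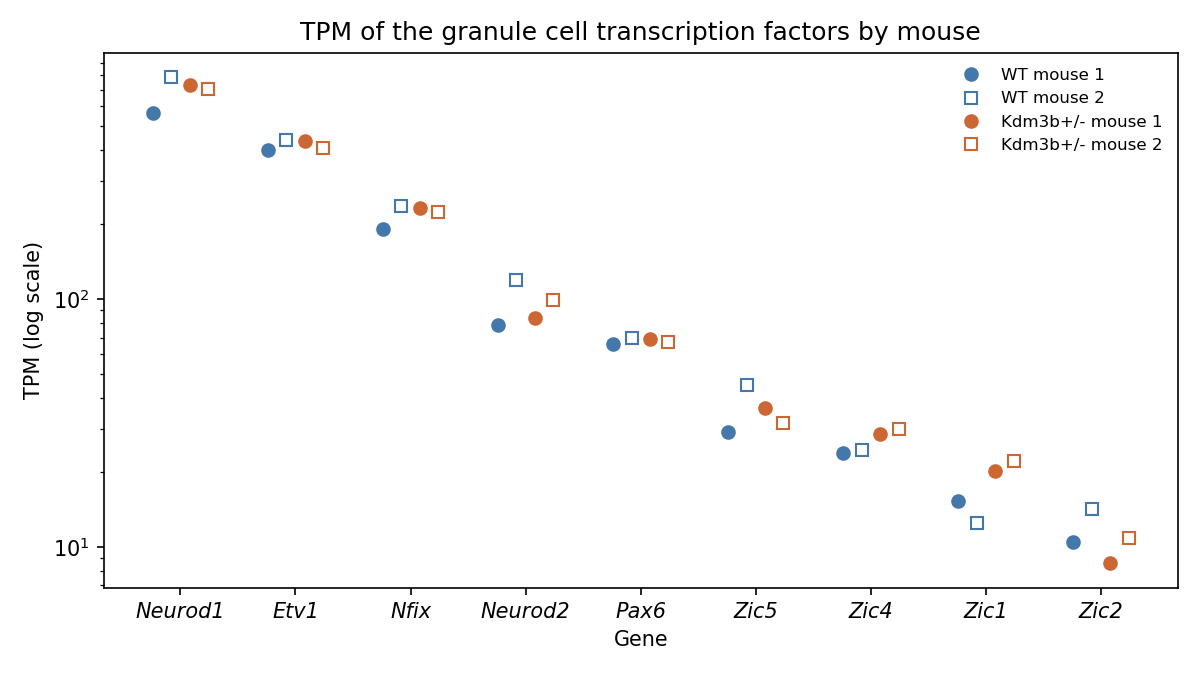
TPM (log axis) of each granule cell transcription factor in each of the 4 mice, with circles for mouse 1 and open squares for mouse 2 of each genotype. *Neurod1* lies highest and *Zic2* lowest on average, and the Kdm3b+/- points lie above both WT points for *Zic1* and *Zic4* only.

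None of the 9 factors was DEX by limma on TPM, where 0.461% of all tested genes were, and the count test of the study was not rerun. An unadjusted p under 0.05 was found for *Zic1* alone, against 17% of all tested genes. The groups did not overlap for *Zic1* and *Zic4*, or 2 of 9 genes, where 51.3% of all tested genes had no overlap. Both were higher in the Kdm3b+/- mice, as were 19.2% of all tested genes, while 32% were lower without overlap. With median-ratio scaling *Pax6* and *Nfix* also had no overlap, or 4 of 9 genes against 50.5% of all. With the replicate number as a block 4.39% of all tested genes were DEX and still none of the 9, and 43 genes were DEX with the block and the length and GC correction together. Log2 fold changes had a median of 0.02 over the 9 factors and of −0.07 over all tested genes, with 6 genes higher and 3 lower in mean. The correction for length and GC content described below moved the median of the 9 genes to 0.165. With 2 mice against 2 an exact permutation test cannot go below p = 0.333, so the limma values rest on a spread shared across genes. In bulk tissue, fewer granule cells and less RNA per cell cannot be told apart.

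*Zic1*, which keeps cerebellar progenitors dividing and is expressed on in mature granule cells, measured 15.4 and 12.5 TPM in WT animals (13.9 ± 2.05, SD, n = 2). In the Kdm3b+/- mice it was 20.3 and 22.1 (21.2 ± 1.31, SD, n = 2). Both Kdm3b+/- values were above both WT values, and the mean read depth over the gene was between 30.8 and 67.7. The log2 fold change was 0.58 (standard error 0.16, 95% interval 0.21 to 0.95, limma adjusted p = 0.168), so the interval excluded 0 before adjustment but the gene was not DEX. Its log2 fold change was positive under each alternative, and its adjusted p ran from 0.0577 with a replicate block to 0.477 without Kdm3b+/- mouse 1.

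*Zic4*, the divergent partner of *Zic1*, measured 24.1 and 24.6 TPM in WT animals against 28.7 and 29.9 in Kdm3b+/- animals. The mice of a genotype lay close together and the groups did not overlap. The log2 fold change was 0.26 (standard error 0.14, 95% interval −0.06 to 0.58, limma adjusted p = 0.38). After each library had been corrected for length and GC content of the transcripts, it was 0.40 (limma adjusted p = 0.178). The ratio of *Zic4* to *Zic1* in TPM was 1.57 and 1.97 in WT animals against 1.41 and 1.35 in Kdm3b+/- animals. The RefSeq models of *Zic1* and *Zic4*, unlike the deposited ones, overlap by 138 bases, and the sources used here do not say whether the reads kept their strand.

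In the other *Zic* pair the genotypes overlapped. *Zic2*, mutated in human holoprosencephaly and known to act in early brain patterning, measured 10.5 and 14.2 TPM in WT animals against 8.60 and 10.9 in Kdm3b+/- animals. WT mouse 1 lay between the Kdm3b+/- mice, and the log2 fold change was −0.31 (standard error 0.19, 95% interval −0.75 to 0.13, limma adjusted p = 0.437). *Zic5*, its divergent partner, had 29.2 and 45.1 in WT animals against 36.4 and 31.5 in Kdm3b+/- animals. Both Kdm3b+/- values lay between the WT values, with a log2 fold change of −0.10 and a 95% interval from −0.56 to 0.36, and the sign turned with quantile normalization and with the length and GC correction (0.07). The ratio of *Zic1* to *Zic2* in TPM was 1.46 and 0.876 in WT animals against 2.36 and 2.03 in Kdm3b+/- animals. The 4 *Zic* genes summed to a TPM of 79.2 and 96.4 in WT animals against 93.9 and 94.5 in Kdm3b+/- animals.

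*Neurod1*, which is needed for granule cells to differentiate and survive, measured 562.5 and 784.7 TPM in WT animals against 733.6 and 705.4 in Kdm3b+/- animals. The Kdm3b+/- mice lay between the WT mice, and the log2 fold change was 0.11 (standard error 0.16, 95% interval −0.24 to 0.47, limma adjusted p = 0.742). Without WT mouse 1 it was −0.12, and without WT mouse 2 it was 0.35. *Neurod2*, a paralog that supports the survival of these neurons, had 78.3 and 119.0 in WT animals against 84.0 and 99.1 in Kdm3b+/- animals. Again the Kdm3b+/- mice lay between the WT mice, and the log2 fold change of −0.08 (95% interval −0.53 to 0.37) became −0.38 without WT mouse 1 and 0.22 without WT mouse 2. The length and GC correction turned it to 0.17 (limma adjusted p = 0.599).

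*Pax6*, a regulator of granule cell precursors that stays on in the mature cells, measured 65.7 and 69.4 TPM in WT animals against 69.3 and 67.3 in Kdm3b+/- animals. *Etv1*, an ETS factor that depends on neuronal activity and acts on genes of the mature granule cell, had 400.8 and 439.6 in WT animals against 435.5 and 407.5 in Kdm3b+/- animals. For both genes the 4 values lay close together and the Kdm3b+/- values lay between the WT values. Their log2 fold changes were 0.02 (95% interval −0.28 to 0.32) and 0.01 (95% interval −0.27 to 0.28), that of *Etv1* turning to −0.04 with quantile normalization. *Nfix*, which with its relatives switches granule neurons to their late genes and is also found in glia, had 191.3 and 238.4 in WT animals against 232.8 and 225.5 in Kdm3b+/- animals. Its log2 fold change was 0.10 (95% interval −0.22 to 0.42), or 0.31 after the length and GC correction (limma adjusted p = 0.273). The deposited models of *Pax6* overlap *Pax6os1* and *Elp4* at their ends on the other strand, at TPM values up to 8.35 and 11.9.

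**Figure D2:**
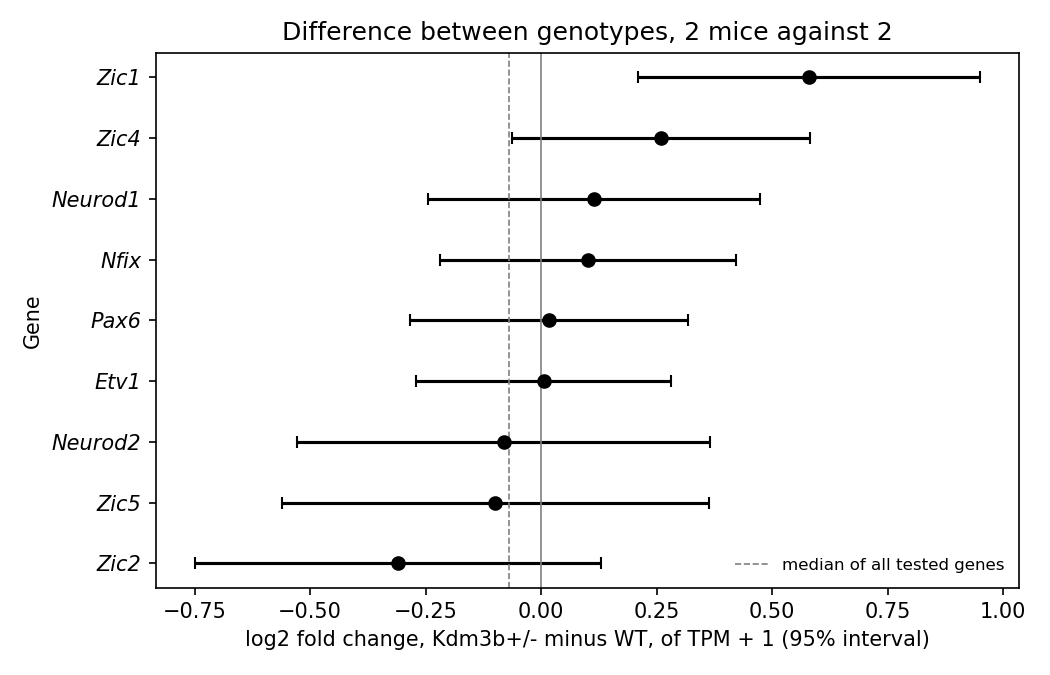
Log2 fold change (Kdm3b+/- minus WT, of TPM + 1) of each factor with its 95% interval from limma, 2 mice a group. The interval of *Zic1* alone lies above 0, from 0.21 to 0.95, and the dashed line marks the median of all tested genes at −0.07.

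WT mouse 2 was above WT mouse 1 in 8 of the 9 genes, *Zic1* being the exception, where 58.6% of all tested genes were higher in WT mouse 2. The gap on the log2(TPM + 1) scale was 0.61 for *Zic5*, 0.60 for *Neurod2*, 0.48 for *Neurod1* and 0.40 for *Zic2*. Only 4.96% of all tested genes had a larger WT gap than *Zic5*, and 5.38% a larger one than *Neurod2*. The Kdm3b+/- mice were closer, with a median gap of 0.10 over the 9 genes against 0.32 in the WT mice. Over all tested genes these medians were 0.14 and 0.19. The WT gap exceeded the difference of the genotype means in 7 of the 9 genes, *Zic1* and *Zic4* being the others, and in 51.3% of all tested genes.

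**Figure D3:**
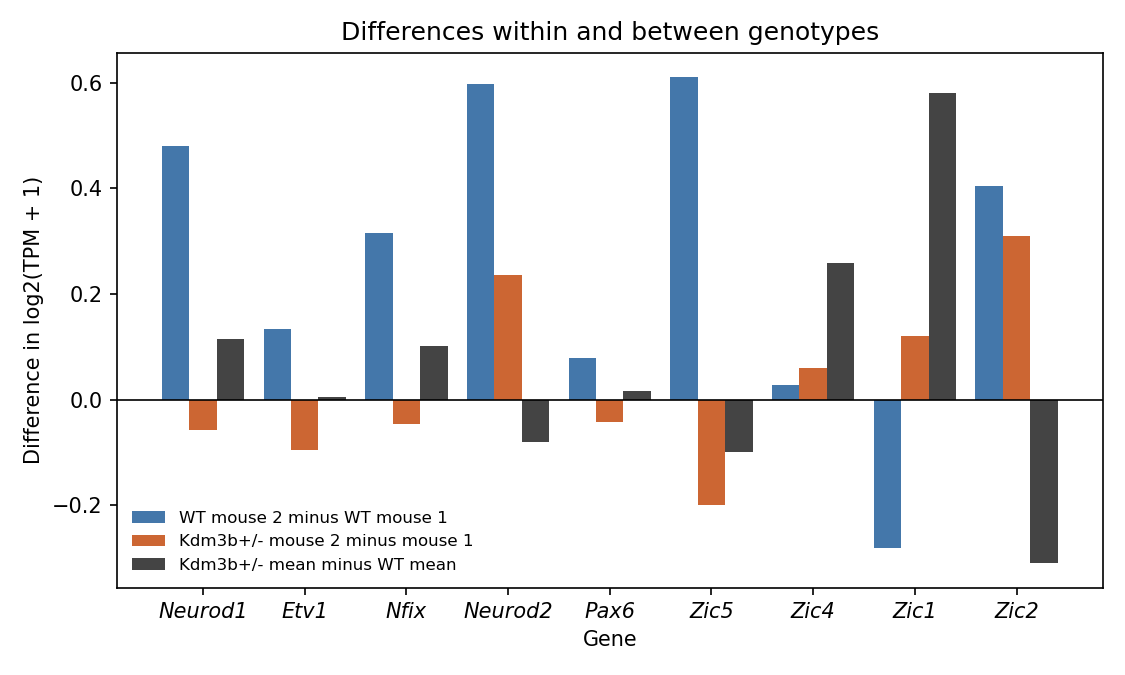
Differences in log2(TPM + 1) for each factor, between the WT mice, between the Kdm3b+/- mice, and between the genotype means. The genotype bar is the tallest for *Zic1* and *Zic4* (0.58 and 0.26), and the WT bar for the other 7 factors. The largest WT bars are those of *Neurod1*, *Neurod2* and *Zic5* (0.48, 0.60 and 0.61).

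Marker genes of other cells also differed between the WT mice. The 13 Purkinje cell markers summed to a TPM of 1623 in WT mouse 1 and 727.7 in WT mouse 2, and to 916.6 and 746.9 in the Kdm3b+/- mice. The mouse with the most Purkinje cell transcript had the lowest *Neurod1*, *Neurod2*, *Nfix*, *Pax6*, *Etv1*, *Zic4* and *Zic5*. All 11 Purkinje cell markers that passed the minimum had a lower mean in Kdm3b+/- mice (none DEX, 3 with an unadjusted p under 0.05 by limma, median log2 fold change −0.49), and none of the 13 was at 0 in all mice. The most abundant was *Pcp4*, with a mean TPM of 252.1. The 8 granule cell markers, 3 of which are among the 9 factors, summed to 3497 and 4304 in WT animals against 3482 and 3627 in Kdm3b+/- animals, so the labelled tissue carried its defining transcripts in each library. The part of tissue makeup in the values above was not tested.

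Markers of other cells were summed in the same way. The 14 markers of inhibitory interneurons summed to 370.4 and 325.4 in WT animals against 249.8 and 248.1 in Kdm3b+/- animals, with 1 of 11 tested DEX and lower. The 5 markers of unipolar brush cells, which share the rhombic lip origin and express *Pax6*, summed to 101.7 and 119.0 in WT animals against 102.6 and 96.2 in Kdm3b+/- animals. The 11 markers of astrocytes and Bergmann glia, where *Nfix* is also active, summed to 2750 and 2428 in WT animals against 1881 and 2153 in Kdm3b+/- animals, with 2 DEX and higher and 1 DEX and lower. Without *Ndrg2*, the most abundant of them and the DEX gene that was lower, the sums overlapped. The other 10 summed to 1092 and 966 in WT animals and 961 and 1194 in Kdm3b+/- animals. Of the 11 markers 4 were higher and 7 lower in mean in Kdm3b+/- mice. The 10 markers of the meninges, where *Zic* genes are expressed too, summed to 69.7 and 63.4 in WT animals against 39.9 and 42.9 in Kdm3b+/- animals, with 1 of 7 tested DEX and lower. Without *Fmod* and *Dcn* the other 8 summed to 19.9 and 19.2 in WT animals and 13.9 and 18.0 in Kdm3b+/- animals. Of the 7 tested meningeal markers, 5 were lower and 2 higher in mean in Kdm3b+/- mice, where *Zic1* was higher. Whether meningeal tissue had a part in the *Zic1* values was not tested. The 9 markers of oligodendrocytes summed to between 15070 and 17990 in the 4 mice, the 7 of microglia to between 98.6 and 123.3 and the 6 of endothelium to between 85.8 and 113.7. No marker of these lists was at 0 in all mice.

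**Figure D4:**
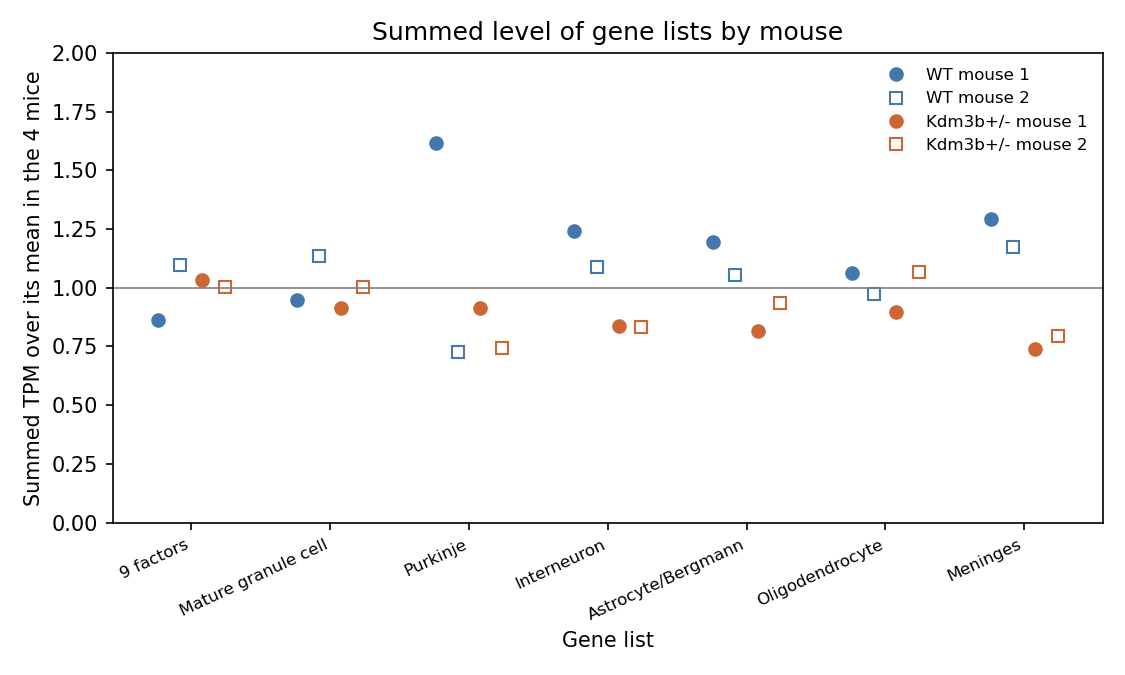
Summed TPM of the 9 factors, of mature granule cell genes and of marker lists of other cells, each divided by its mean over the 4 mice. WT mouse 1 is lowest for the 9 factors (summed TPM 1378) and highest for Purkinje cell markers (1623). Both Kdm3b+/- mice lie below both WT mice for interneuron, astrocyte and meningeal markers, but the astrocyte sums overlap without *Ndrg2*.

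Relatives of the 9 factors were measured in the same libraries, and 8 of 10 passed the minimum. None of the 8 was DEX or had an unadjusted p under 0.05 by limma, and their median log2 fold change was −0.08, or 0.08 after the length and GC correction. *Neurod6* was lower in both Kdm3b+/- mice (5.36 and 5.40 against 7.13 and 6.52, limma adjusted p = 0.388). The nuclear factor I genes *Nfia*, *Nfib* and *Nfic* had log2 fold changes of 0.12, −0.08 and 0.09, and all overlapped between the groups. *Etv5*, an ETS relative of *Etv1*, differed most between the WT mice (16.9 and 36.8), around values of 21.4 and 26.4 in the Kdm3b+/- mice. *Etv4* and *Pax3* had log2 fold changes of 0.27 and −0.16. *Neurod4* was listed at 0 in each mouse and *Pax2* had a TPM of at most 0.597.

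E proteins pair with NeuroD proteins on DNA, and Id proteins hold E proteins off DNA. None of these 7 genes was DEX or had an unadjusted p under 0.05 by limma, and the median log2 fold change was −0.01. *Tcf4*, the most abundant E protein gene, had 129.0 and 144.3 in WT animals against 136.3 and 132.7 in Kdm3b+/- animals. *Tcf12* had a log2 fold change of 0.07 and *Tcf3* of −0.45, the latter with 14.5 and 26.99 in the Kdm3b+/- mice against 23.4 and 32.0 in the WT mice. *Id2*, the most abundant Id gene, had 355.1 and 313.4 in WT animals against 415.2 and 393.1 in Kdm3b+/- animals, without overlap (log2 fold change 0.28, limma adjusted p = 0.303). *Id3* had a log2 fold change of 0.19, *Id1* of −0.01 and *Id4* of −0.11.

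Of 17 other transcription factors of the granule cell lineage, 11 passed the minimum and none was DEX or had an unadjusted p under 0.05 by limma. Their median log2 fold change was −0.08, with 9 lower in mean, or 0.03 after the length and GC correction. *Meis1*, a homeobox gene of granule cell precursors and their progeny and the most abundant of the list, had the lowest value (44.0 and 58.3 in the WT mice, 35.7 and 42.8 in Kdm3b+/- animals, log2 fold change −0.36, limma adjusted p = 0.324). *Meis2* had the highest, at 0.18. *Atoh1*, which specifies granule cell precursors, and *Nhlh1* were listed at 0 in each mouse.

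All 18 genes of the mature granule cell were tested, none was DEX by limma, 1 was higher and 4 were lower at an unadjusted p under 0.05, and 5.47% and 11.5% of all tested genes were. The median log2 fold change was −0.12, or 0.04 after the length and GC correction. *Chn2*, *Cbln3*, *Rasgrf1* and *Kcnk9* made up the lower genes and *Cbln1* the higher one. With the replicate block *Chn2* and *Cbln3* were DEX and lower, and with the block and the length and GC correction together neither was. *Calb2*, which encodes calretinin and had the highest mean, had 1365 and 1577 in WT animals against 1491 and 1891 in Kdm3b+/- animals. *Cbln1*, a secreted organiser of the parallel fibre synapse, had the highest log2 fold change (0.41, with 390.6 and 347.1 against 475.8 and 506.9, limma adjusted p = 0.178). *Kcnk9*, which encodes a potassium leak channel of granule cells, had the lowest (−0.81, with 1.503 and 2.234 against 0.498 and 0.755, limma adjusted p = 0.154). *Grin2c*, an NMDA receptor subunit gene that ETV1 is known to act on, had 92.6 and 158.3 in WT animals against 91.7 and 116.1 in Kdm3b+/- animals. *Gabra6*, the receptor subunit gene that marks mature granule cells, had 983.6 and 1097 against 1200 and 1032.

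In the list of granule cell precursor and migration genes, 6 of 11 passed the minimum and 1 rose, where 0.117% of all tested genes were DEX and higher. This was *Ccnd1*, which encodes cyclin D1 of the cell cycle. Its TPM was 5.23 and 6.96 in WT animals against 15.0 and 13.9 in Kdm3b+/- animals (log2 fold change 1.14, standard error 0.18, limma adjusted p = 0.036). *Ccnd1* was not DEX without WT mouse 1 (adjusted p = 0.0832 by limma), without WT mouse 2 (0.0642), without trend (0.056) or without the filter on low TPM (0.272). *Ccnd2* had 2.04 and 2.29 against 3.38 and 3.74, without being DEX (log2 fold change 0.53, limma adjusted p = 0.217). The proliferation genes *Mki67* and *Top2a* had a TPM of at most 0.313 and 0.278. *Tubb3* had the highest mean of the list and a log2 fold change of 0.04, and *Mfap4* had the lowest log2 fold change at −0.17.

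**Figure D5:**
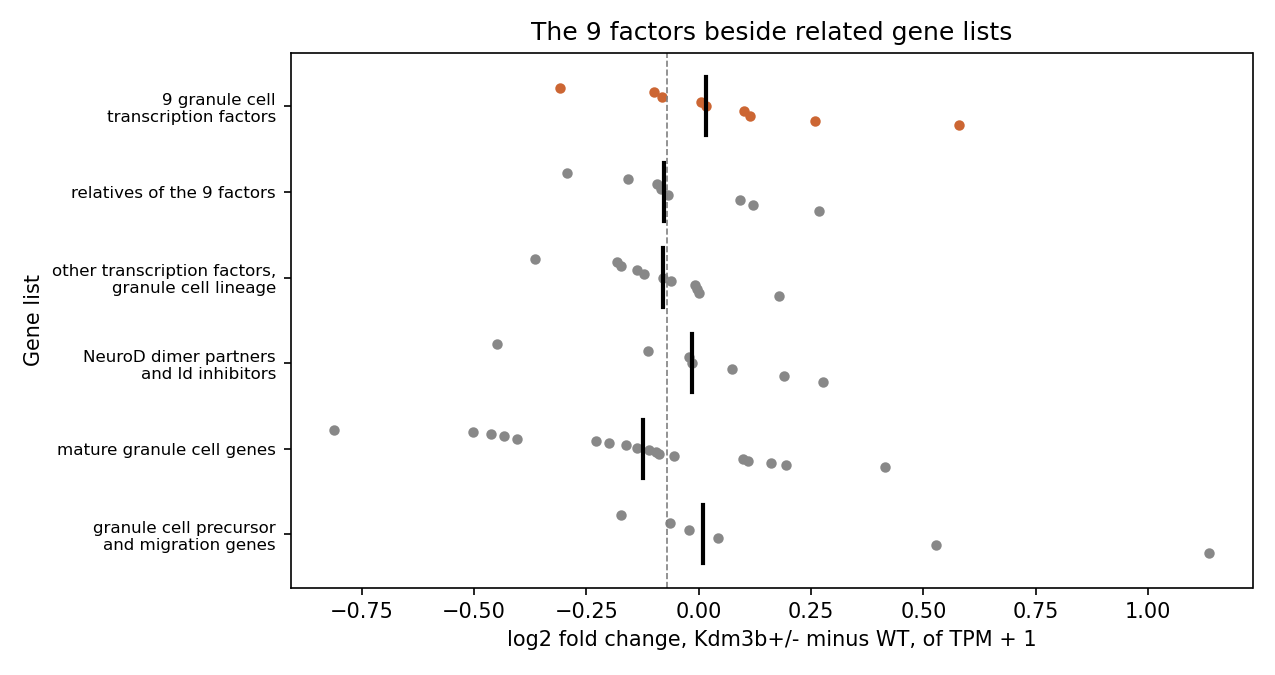
Log2 fold change (Kdm3b+/- minus WT, of TPM + 1) of each tested gene in the 9 factors and in 5 related lists, with a bar at each list's median and a dashed line at the median of all tested genes. The medians of the lists run from −0.12 to 0.02, and *Ccnd1* stands apart at 1.14.

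Genes with the most similar pattern over the 4 libraries were found among the 10539 genes whose mean TPM reached 5, by the root mean square difference of log2(TPM + 1) after centring. For *Zic1* these were *Icam2*, *Rps21* and *Flywch2*, with differences of 0.017, 0.018 and 0.024. Of the 9 factors *Zic4* came nearest to *Zic1*, at 0.195, with 908 genes closer. For *Neurod1* they were *Klf10*, *Rif1* and *Chst7*, between 0.016 and 0.017, and *Nfix* was nearest among the factors, at 0.058 with 54 genes closer. For *Etv1* they were *Zmym5*, *Rars* and *Pdxp*, between 0.008 and 0.010, and *Pax6* was nearest among the factors, at 0.028 with 76 genes closer. With 4 libraries many genes lie close to any pattern.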

How the data were processed

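Bulk RNA-seq libraries of 2 WT and 2 Kdm3b+/- mice were grouped by genotype from the sample labels. The authors trimmed low-quality bases, aligned reads with STAR, estimated abundance with StringTie and deposited the coverage (mean read depth), the FPKM and the TPM of each gene. Genome build, annotation and tool versions are not given in the sources used here. The coordinates fitted GRCm38, with 99.5% of gene numbers on the RefSeq chromosome and 90.4% of starts within 1 kb. RefSeq symbols were found for 24462 gene numbers, and entries of the 220 repeated numbers were summed. Depth came from dividing coverage by FPKM. Counts were not recovered, so the count test of the study was replaced by limma version 3.58.1 (eBayes with trend) in R version 4.3.3 on log2(TPM + 1), for genes whose mean TPM reached 1. It was tested on simulated data with independent normal noise, which meet the assumptions of the fit and hold no differences in tissue makeup. The fit was repeated with other scalings, filters, moderation and a replicate block, and with each mouse left out. Robust fits used statmod version 1.5.0, and tables and figures Python version 3.11.15, pandas version 2.3.3 and Matplotlib version 3.10.9. Transcript length and GC content came from GENCODE (94.5% of tested genes).

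The factors and gene lists were chosen with earlier results of these data known. Named were all factors, *Kdm3b*, the tested relatives and NeuroD partners, and of each other list the most abundant gene, DEX genes and the highest and lowest log2 fold change. Genes outside this rule (listed at 0 or below the minimum, *Pax6os1*, *Elp4*, *Grin2c*, *Gabra6*, *Ccnd2*, single astrocyte and meningeal markers and the mature genes under an unadjusted p of 0.05) were named after their values were seen. Some values of single genes in the lists are not reported here.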

Additional observations from a re-analysis of the deposited data

How the results depend on the processing

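No factor was DEX under any of the 14 alternatives or with any mouse left out. Leaving mice out aside, 120 of 126 single log2 fold changes kept their direction, but many of these could not change. The TPM filters, the choice of entry for repeated gene numbers, the moderation, the replicate block and the call threshold left each value as in the main fit. The others reversed: *Zic5* (0.007) and *Etv1* (−0.036) with quantile normalization, and *Neurod2* (0.165) and *Zic5* (0.071) with the length and GC correction, the last pair alike with the replicate block added. That correction moved the median of the 9 factors to 0.165. Groups did not overlap for 4 factors (*Pax6* and *Nfix* besides *Zic1* and *Zic4*) with median-ratio scaling, with FPKM and with the length and GC correction, alone or with the block, and for 3 (*Pax6* added) with quantile normalization, where 48.9% to 50.6% of all genes had none. The number of DEX genes was 38 with FPKM, 1 without a filter, 37 without trend and 600 with the replicate block, but 43 with the block and the length and GC correction. The labels' replicate numbers are shared by different animals. Across all tested genes, the deviations of WT mouse 1 and Kdm3b+/- mouse 1 from their group means correlated at 0.121. The deviations of the mice numbered 2 mirror these and add nothing. The numbers were not taken as a pairing. With a mouse left out, the lone mouse of its group is assumed to vary like the others. The number of DEX genes then ran from 21 (without WT mouse 1) to 188 (without Kdm3b+/- mouse 2), with 28 without WT mouse 2 and 121 without Kdm3b+/- mouse 1. Factors without overlap ran from 2 to 9, where 69.8% to 82.4% of all tested genes had none, the median log2 fold change from −0.061 to 0.218, and the single log2 fold changes from −0.125 to 0.354 for *Neurod1*, −0.379 to 0.218 for *Neurod2*, −0.404 to 0.206 for *Zic5*, −0.023 to 0.055 for *Pax6*, −0.061 to 0.072 for *Etv1* and −0.057 to 0.259 for *Nfix*. *Zic1* (0.439 to 0.720), *Zic4* (0.229 to 0.289) and *Zic2* (−0.512 to −0.107) kept their sign. Beyond *Ccnd1*, *Cbln3*, *Chn2* and, without Kdm3b+/- mouse 2, *Slc17a7*, no gene of the 5 related lists was DEX under any alternative. Sums of markers without their leading genes were added after seeing the data. The cause of these shifts was not tested.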
